A study of Homo sapiens with 2 samples.

Results

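The SOX genes of groups F, E and C encode transcription factors that share a DNA-binding domain, the HMG box. The 9 genes considered here were chosen by family membership: group F comprised SOX7, SOX17 and SOX18, group E comprised SOX8, SOX9 and SOX10, and group C comprised SOX4, SOX11 and SOX12. All 9 were found, by their NCBI Gene numbers, among the 17397 genes listed in both expression tables. RNA-Seq had been performed on 2 libraries, 1 of wild-type (WT) and 1 of MEIS2-/- genotype, from cells that had undergone 4 days of hematopoietic differentiation. The parental H1 cells are an established human embryonic stem cell line. Cells of both genotypes had received 50 ng/ml activin A with 40 ng/ml BMP4 for 2 days, followed by 40 ng/ml VEGF with 50 ng/ml bFGF for 2 days. The MEIS2-/- cells were derived clonally after delivery of a guide RNA and Cas9 by lentivirus with puromycin selection, and the sequenced clone is not named in the sources used here. Each library came from unsorted cultured cells, so that its values are averages over all cell types present.

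SOX factors bind a short A/T-rich DNA sequence through the HMG box, bend the DNA and act with partner factors that differ between cell types. Group F factors are known for their roles in blood and lymphatic vessel development. SOX17 is also a regulator of definitive endoderm and of human primordial germ cells. Group E factors are known from cartilage, testis, neural crest and glia, and group C factors from progenitor cells of neural and mesenchymal tissues.

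The similarity of these genes is shown here by the stretch of 60 bases that was most alike over the 9 transcripts, because genes this similar could share sequencing reads. The stretch lies in the coding sequence, in the part that encodes the HMG box, and 39 of its 60 bases were the same in all 9 transcripts. These bases are in capitals in the following 7 sequences, which were read 5′ to 3′ from the GENCODE 29 transcripts.
SOX18: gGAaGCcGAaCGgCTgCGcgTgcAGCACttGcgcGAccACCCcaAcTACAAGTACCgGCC
SOX8: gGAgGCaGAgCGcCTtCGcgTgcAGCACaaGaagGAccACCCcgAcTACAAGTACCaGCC
SOX9: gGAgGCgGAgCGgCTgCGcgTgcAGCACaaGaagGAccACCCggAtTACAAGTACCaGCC
SOX10: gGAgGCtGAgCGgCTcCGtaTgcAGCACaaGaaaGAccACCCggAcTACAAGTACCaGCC
SOX4: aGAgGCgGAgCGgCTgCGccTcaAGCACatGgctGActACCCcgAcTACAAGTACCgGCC
SOX11: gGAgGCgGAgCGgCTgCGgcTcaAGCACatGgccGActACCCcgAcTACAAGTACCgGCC
SOX12: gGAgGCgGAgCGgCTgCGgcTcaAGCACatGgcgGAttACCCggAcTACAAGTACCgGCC

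On GRCh38 these stretches occupy chr20:64048854-64048913 (SOX18, minus strand, exon 2 of 2), chr16:983764-983823 (SOX8, plus strand, exon 2 of 3) and chr17:72122755-72122814 (SOX9, plus strand, exon 2 of 3). The others are at chr22:37978040-37978099 (SOX10, minus strand, exon 3 of 4), chr6:21594864-21594923 (SOX4, plus strand), chr2:5693021-5693080 (SOX11, plus strand) and chr20:326197-326256 (SOX12, plus strand). SOX4, SOX11 and SOX12 each have a single exon. Within a group, pairs of genes agreed at 53 to 55 of the 60 bases in group E, at 55 to 57 in group C and at 51 to 56 in group F. Pairs from different groups agreed at 45 to 54 bases. The longest run of identical bases shared anywhere by a pair of the 9 transcripts was 45 bases, between SOX9 and SOX10. No window of 50 bases in any of the 9 transcripts was found in a transcript of another SOX gene. The read length is not given in the sources used here, so whether these genes shared reads was not tested.

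SOX7 and SOX17 both lie on chromosome 8, SOX7 from 10723768 to 10730512 on the minus strand and SOX17 from 54457935 to 54460888 on the plus strand. SOX7 overlaps PINX1 on the same strand in this annotation, and 1220 of its 3167 windows of 50 bases (38.5%) also occur in annotated PINX1 transcripts. The level of PINX1, a telomerase inhibitor gene, was 12.13 FPKM in the WT and 14.55 FPKM in the MEIS2-/- library. SOX10 lies inside the span of POLR2F, an RNA polymerase subunit gene on the opposite strand, at 19.94 FPKM and 22.38 FPKM. Antisense transcripts are annotated across all or part of SOX7, SOX9, SOX4 and SOX12. A non-coding RNA gene overlaps SOX11 on the same strand and shares 25 of its 8670 windows. Strand would not separate reads from stretches shared with a same-strand partner, as for SOX7 and SOX11. Whether strand was used in counting is not given in the sources used here, so reads from a gene and an opposite-strand partner cannot be told apart either.

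Expression was deposited as FPKM, fragments per kilobase of transcript, normalised to the total of mapped fragments, which allows levels to be compared between genes per unit of length. The sums of all FPKM values were 447542 (WT) and 440651 (MEIS2-/-), and the depth of each library is unknown, since the tables hold no read counts. The log2 fold change was that of MEIS2-/- relative to WT, taken with 0.1 FPKM added to each value, so that the change of low genes is understated. A difference of 2-fold or more was counted among the 13075 genes that reached 1 FPKM in either library, and all 9 SOX genes were among them. The median log2 fold change of these 13075 genes was 0.12, so that a gene at 0 was slightly below the middle of the distribution. Because each genotype had 1 library, no difference below has a replicate check, no error or p-value can be given, and the genotype and the culture, which changed together, cannot be told apart. MEIS2 mRNA was at 10.85 FPKM in the WT and 3.44 FPKM in the MEIS2-/- library, a log2 fold change of -1.63. The endothelial progenitor genes KDR (323.77 FPKM), CD34 (21.80 FPKM) and CDH5 (15.20 FPKM) were expressed in the WT library, while PECAM1, which encodes CD31, was low at 1.53 FPKM.

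The 3 groups differed between the genotypes in different ways. In group F, SOX7 and SOX18 were lower in MEIS2-/- cells and SOX17 was higher. In group E, all 3 genes were lower, and in group C the 3 genes differed by less than 2-fold. Of the 9 genes, 4 were at least 2-fold lower without MEIS2 (SOX7, SOX18, SOX8 and SOX10), where 7.97% of all genes compared were. In all, 7 of the 9 had lower values, where 40.6% of all genes compared had. None of the 9 was at least 2-fold higher, where 7.84% of all genes compared were. The median log2 fold change was -0.65 over the 9 genes, -1.85 in group F, -1.26 in group E and -0.20 in group C. In unsorted cells, fewer cells that express a gene and less RNA of it per cell cannot be told apart.

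**Figure D1:**
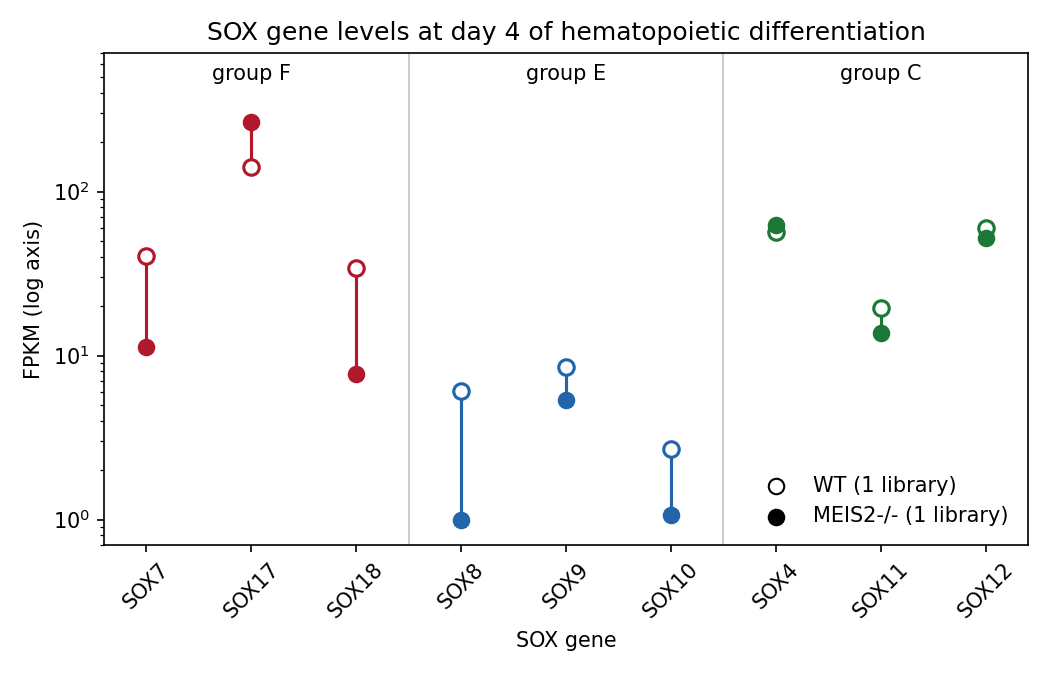
FPKM (vertical axis, log scale) of the 9 SOX genes (horizontal axis) in the WT library (open circles) and the MEIS2-/- library (filled circles), with 1 library per genotype and therefore no error bars. SOX17 was the highest gene in both libraries and moved up from 141.01 to 264.03 FPKM, while SOX7, SOX18, SOX8 and SOX10 moved down and SOX4 and SOX12 stayed close together.

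SOX17 was the most abundant of the 9 SOX genes in both libraries. Its level was 141.01 FPKM in the WT and 264.03 FPKM in the MEIS2-/- library, which is 1.87 times as high. The log2 fold change of 0.90 was just short of the 2-fold threshold, and 1198 of the 13075 genes (9.16%) had a value as high or higher. Among the genes with a mean of at least 100 FPKM, to which SOX17 belongs, 2.66% were at least 2-fold higher and 6.57% at least 2-fold lower. SOX17 ranked 480 among the 17397 listed genes in WT cells and 215 in MEIS2-/- cells.

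SOX7, which is known to help maintain the endothelial program in hemogenic endothelium, went the other way. Its level was 40.73 FPKM in the WT and 11.25 FPKM in the MEIS2-/- library, so that 27.6% of the WT level was measured without MEIS2. The log2 fold change was -1.85, and 310 genes (2.37% of those compared) had a value as low or lower. The opposite direction of the overlapping PINX1 gene is a measured fact, and its part in the SOX7 value was not tested.

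SOX18, a regulator of lymphatic and blood vessel endothelium, differed most within group F. It was at 34.23 FPKM in the WT and 7.67 FPKM in the MEIS2-/- library, 4.46-fold lower. The log2 fold change was -2.14, with 200 genes (1.53%) as low or lower. Among genes with a mean of 20 to 100 FPKM, the range that holds SOX7 and SOX18, 5.01% were at least 2-fold lower and 4.23% at least 2-fold higher.

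The opposite changes altered the make-up of group F more than its total. The summed level of the 3 genes was 215.97 FPKM in the WT and 282.95 FPKM in the MEIS2-/- library. SOX17 accounted for 65.3% of that sum with MEIS2 and 93.3% without it. SOX7 accounted for 18.9% and 3.98%, and SOX18 for 15.8% and 2.71%. The ratio of SOX17 to SOX7 was 3.46 in WT cells and 23.5 in MEIS2-/- cells, and the ratio of SOX17 to SOX18 was 4.12 and 34.4. The ratio of SOX7 to SOX18, in contrast, was 1.19 and 1.47. Because these are ratios of levels within 1 library, they do not depend on how the libraries were scaled against each other.

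**Figure D2:**
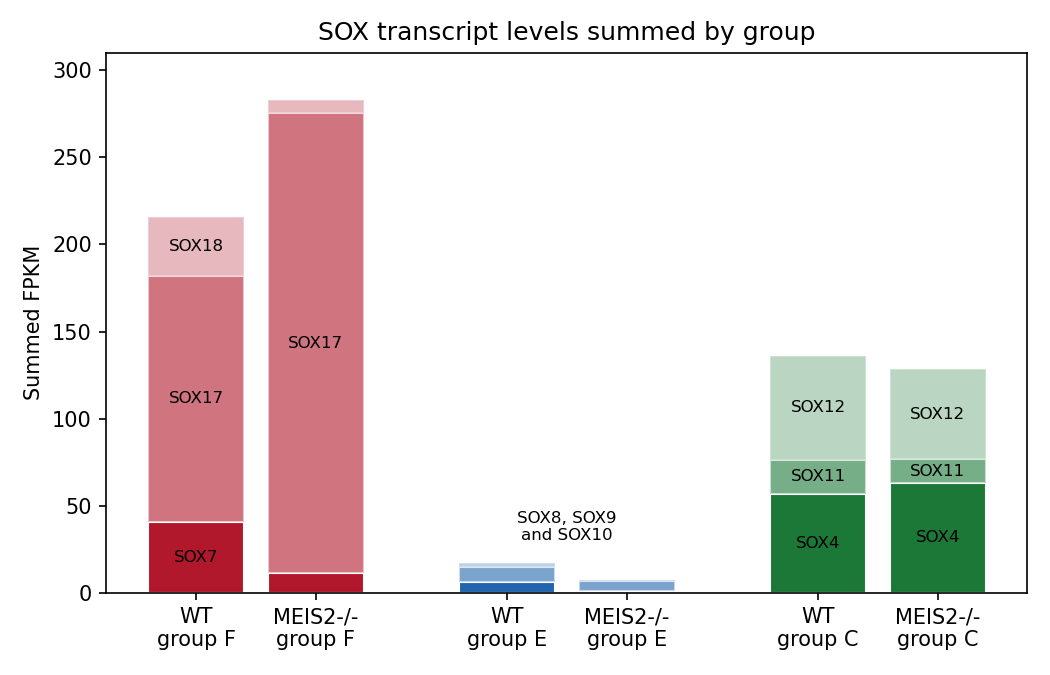
Summed FPKM (vertical axis, linear from 0) of the genes of each SOX group in the WT and MEIS2-/- libraries, with 1 library per bar and segments for the single genes. The group F bar was taller in MEIS2-/- cells (282.95 against 215.97 FPKM) and almost entirely SOX17, the group E bar was low in both and lower in MEIS2-/- cells, and the group C bars were of similar height and composition.

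Genes that group F factors are known to control in vessels differed in both directions, and several were barely expressed. Of the 8 such genes in the tables, 4 had lower and 4 had higher values in MEIS2-/- cells. Of these, 5 passed the filter of 1 FPKM. At least 2-fold lower were 4, against 7.97% of all genes compared, and 1 was at least 2-fold higher, against 7.84%. The median log2 fold change of the 5 genes was -1.58. The median became -0.44 when all 8 genes were taken. The 3 largest decreases were those of EGFL7, a secreted endothelial protein gene (285.86 FPKM in the WT and 69.96 FPKM in the MEIS2-/- library), PROX1, the lymphatic regulator (1.08 and 0.24 FPKM, past the filter only through its WT value), and CDH5, which encodes VE-cadherin (15.20 and 5.02 FPKM). VCAM1, an adhesion molecule gene that passed the filter only through its MEIS2-/- value, was higher (0.49 and 2.06 FPKM). DLL4, CLDN5 and ROBO4 stayed at or below 0.65 FPKM in both libraries. CDH5 is also counted among the endothelial surface genes described below.

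The endothelial genes listed for comparison were lower in MEIS2-/- cells, as SOX7 and SOX18 were. Of 15 endothelial transcription factor genes, 13 passed the filter, with a median of -1.47. All 13 had lower values, against 40.6% of all genes compared, and 11 passed 2-fold, against 7.97%. This list, like the others, was chosen with earlier results of these data known, so the shares are a description only. The largest decreases were those of ETV2 (-2.64), KLF2 (-2.39) and ERG (-2.18), which encode factors of early endothelial specification, flow response and endothelial identity. Of 9 endothelial surface genes, 9 had lower values and 5 were at least 2-fold lower, with a median of -1.08. PECAM1 passed the filter only through its WT value (1.53 FPKM, and 0.93 FPKM in the MEIS2-/- library). The summed level of the 9 surface genes was 469.63 FPKM in the WT and 131.29 FPKM in the MEIS2-/- library, or 28.0%, and none of them was at 0 in either library. KDR (323.77 and 61.98 FPKM) made up most of the WT sum. The part of a smaller share of endothelial cells in the SOX7 and SOX18 values was not tested.

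SOX17 was higher without MEIS2, as were most primordial germ cell genes and part of the endoderm genes. Of 14 primordial germ cell genes, 12 were compared, and the median was 1.83. Of these, 11 had higher values without MEIS2, against 59.3% of all genes compared, and 10 passed 2-fold, against 7.84%. TFAP2C (2.70), POU5F1 (2.35) and CD38 (2.28) differed most, while DPPA3 was at 5.90 FPKM in the WT and 4.71 FPKM in the MEIS2-/- library. CD38 passed the filter only through its MEIS2-/- value (0.73 and 3.94 FPKM). The summed level of this list was 414.86 FPKM in the WT and 1907.40 FPKM in the MEIS2-/- library, most of it POU5F1, and the late germ cell gene DDX4 was at 0.10 FPKM and at 0. POU5F1 and NANOG also belong to the list of genes of undifferentiated cells described at the end. Of 17 endoderm genes, 10 had higher and 7 had lower values, with a median of 0.89. At least 2-fold higher were 8 genes and at least 2-fold lower were 2, against 7.84% and 7.97% of all genes compared. TTR (3.49), APOB (3.37) and AFP (3.26), genes of yolk sac and liver plasma proteins, were the highest of the list. All of them passed the filter only through the MEIS2-/- library (5.31, 3.72 and 3.91 FPKM, against 0.38, 0.27 and 0.32 FPKM in the WT). LHX1 (-1.78) and GSC (-1.34), genes of early mesendoderm, were the lowest, with GSC past the filter only through its WT value (1.80 and 0.65 FPKM). FOXA2, a pioneer factor of definitive endoderm, was at 43.06 FPKM and 49.12 FPKM. GATA4 (71.37 and 65.34 FPKM) and GATA6 (72.52 and 55.42 FPKM) were lower by less than 2-fold, and MIXL1 (2.33 and 6.47 FPKM) was higher. The summed level of the endoderm list was 690.70 FPKM in the WT and 1220.62 FPKM in the MEIS2-/- library, most of it APOA1 (401.38 and 879.13 FPKM). In unsorted cells, these lists do not show which cell types were present. Which cells carried the SOX17 transcripts, endothelial cells included, was not tested.

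Group E was the least expressed of the 3 groups, with a summed level of 17.30 FPKM in the WT and 7.46 FPKM in the MEIS2-/- library. All 3 genes had lower values in MEIS2-/- cells, against the 40.6% of all genes given above. SOX8, which acts with SOX9 and SOX10 in testis, neural crest and glia, was at 6.06 FPKM in the WT and 1 FPKM in the MEIS2-/- library. Its log2 fold change of -2.49 was the lowest of the 9 SOX genes, with 129 genes (0.987% of those compared) as low or lower. SOX10, the neural crest and glial factor, was at 2.71 FPKM and 1.07 FPKM, with a log2 fold change of -1.26. These are low levels, and among genes with a mean under 5 FPKM 12.9% were at least 2-fold lower and 13.6% at least 2-fold higher. With 1 FPKM added in place of 0.1 FPKM, the log2 fold change of SOX10 was -0.84, under the 2-fold threshold, and that of SOX8 was -1.82.

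SOX9, the main regulator of cartilage formation, differed less than the other group E genes. Its level was 8.53 FPKM in the WT and 5.39 FPKM in the MEIS2-/- library, a log2 fold change of -0.65. Among genes with a mean of 5 to 20 FPKM, the range that also holds SOX11, 5.85% were at least 2-fold lower and 5.94% at least 2-fold higher. SOX9 made up 49.3% of the group E sum with MEIS2 and 72.3% without it, because SOX8 went from 35.0% to 13.4%. The ratio of SOX9 to SOX8 was 1.41 in WT cells and 5.39 in MEIS2-/- cells. SOX9 therefore exceeded SOX8 in both libraries, by a wider margin without MEIS2.

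The genes known to act with or below group E factors did not move as 1 group. Of 12 cartilage genes, 8 were compared, of which 2 were at least 2-fold lower and 1 at least 2-fold higher, with a median of -0.09. The shares of all genes compared were 7.97% lower and 7.84% higher by 2-fold or more. COL11A1 (28.51 FPKM in the WT and 8.90 FPKM in the MEIS2-/- library) and HAPLN1 (282.03 and 135.73 FPKM), genes of cartilage matrix, were lower, and COL2A1, the main cartilage collagen gene (18.41 and 44.15 FPKM), was higher. COL9A2, at 179.50 FPKM and 179.14 FPKM, and COL9A3, at 123.28 FPKM and 109.04 FPKM, were abundant in both libraries. SOX5 and SOX6, the partners of SOX9 in cartilage, were at or below 0.46 FPKM, and ACAN, the aggrecan gene, was at 0.92 FPKM and 0.22 FPKM. Of 14 neural crest and glia genes in the tables, 9 were compared, of which 3 were at least 2-fold lower (NGFR, SNAI1 and MSX1) and 2 at least 2-fold higher (TFAP2A and ERBB3), with a median of 0.19 that became -0.24 with a filter of 5 FPKM. NGFR passed the filter of 1 FPKM only through its WT value (2.34 FPKM, and 0.73 FPKM in the MEIS2-/- library). PAX3 and PAX7, which mark early neural crest, were at or below 0.10 FPKM, and TFAP2B was at 0 with MEIS2 and 0.73 FPKM without it.

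Mesenchyme genes, which are expressed beside SOX9 in many connective tissues, were mostly lower. Of 14 genes 13 were compared, 10 with lower and 3 with higher values, and the median was -0.84. At least 2-fold lower were 6, against 7.97% of all genes compared, and none was at least 2-fold higher. TWIST2 (-2.29), VIM (-1.59) and COL1A1 (-1.53) differed most, with TWIST2 past the filter only through its WT value (2.99 and 0.53 FPKM). PRRX1, 1 of the 6 lower genes, also passed the filter only through its WT value (1.74 and 0.82 FPKM). The summed level was 4821.18 FPKM in the WT and 2606.59 FPKM in the MEIS2-/- library, and no gene of the list was at 0. VIM (3048.28 and 1014.25 FPKM) made up most of the WT sum, while FN1 (899.77 and 1194.54 FPKM) was higher without MEIS2. The part of the mesenchyme difference in the SOX9 value was not tested.

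The group C genes were expressed at similar levels in both libraries. SOX4, a factor of many progenitor cell types, was at 56.89 FPKM in the WT and 62.81 FPKM in the MEIS2-/- library, a log2 fold change of 0.14. SOX12 was at 59.74 FPKM and 51.94 FPKM, a log2 fold change of -0.20. SOX11, which acts with SOX4 in neural progenitors, was at 19.44 FPKM and 13.72 FPKM, a log2 fold change of -0.50. The summed level of group C in MEIS2-/- cells was 94.4% of that in WT cells, 128.47 against 136.07 FPKM. SOX4 and SOX12 exchanged places in the order of levels, but their ratio was near 1 in both libraries (0.952 and 1.21), and without replicates no order between them can be given.

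Genes known as targets of group C factors were few in number here. Of 4 such genes, 3 were compared, and all 3 had higher values without MEIS2, with 1 of them past 2-fold, where 59.3% of all genes compared had higher values. TUBB3, a neuronal tubulin gene, was at 121.80 FPKM in the WT and 259.10 FPKM in the MEIS2-/- library. TEAD2, a Hippo pathway factor gene, was at 46.77 FPKM and 75.50 FPKM, and EZH2, a Polycomb methyltransferase gene, at 12.44 FPKM and 15.05 FPKM. After either rescaling of the libraries, no gene of this list was at least 2-fold higher.

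Without replicates, the measured order of levels cannot separate neighbours as close as SOX4 and SOX12, or SOX8 and SOX10 in MEIS2-/- cells. In that order, WT cells had SOX17, then SOX12, SOX4, SOX7, SOX18, SOX11, SOX9, SOX8 and SOX10. MEIS2-/- cells had SOX17, then SOX4, SOX12, SOX11, SOX7, SOX18, SOX9, SOX10 and SOX8. The 9 genes together amounted to 369.34 FPKM in the WT and 418.88 FPKM in the MEIS2-/- library. SOX17 alone made up 38.2% and 63.0% of these sums. Group F as a whole made up 58.5% and 67.5%, group C 36.8% and 30.7%, and group E 4.68% and 1.78%.

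**Figure D3:**
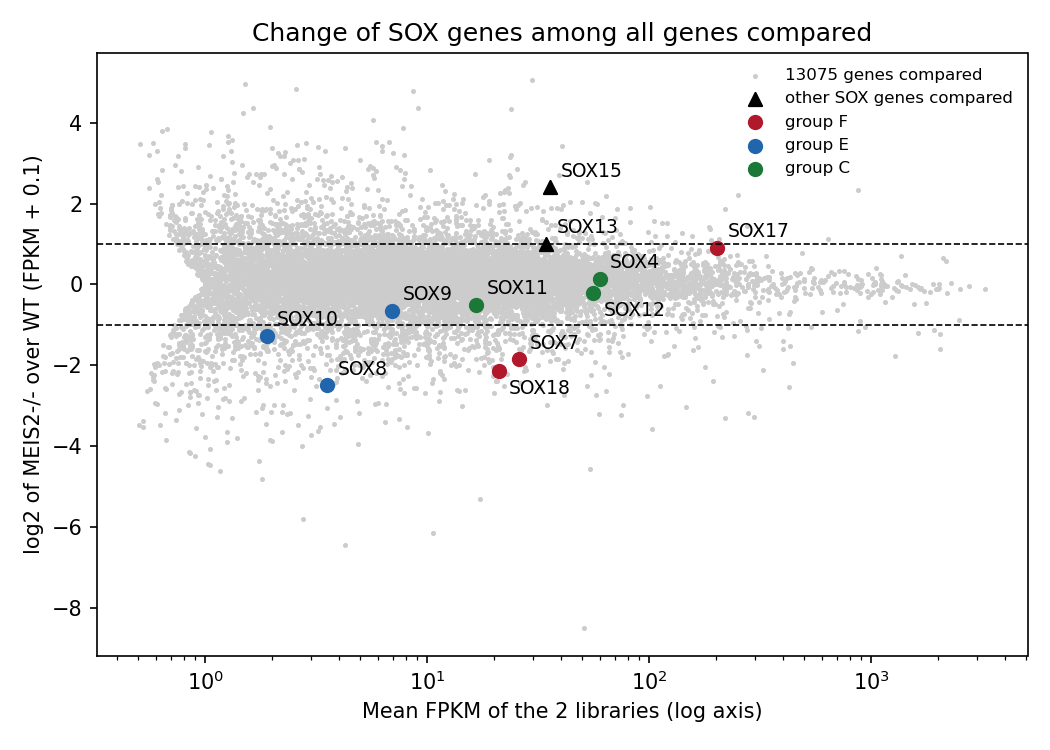
Log2 fold change (MEIS2-/- relative to WT, 0.1 FPKM added; vertical axis) against the mean FPKM of the 2 libraries (horizontal axis, log scale) for the 13075 genes compared (grey) and the SOX genes (coloured circles for groups F, E and C, black triangles for the others), with dashed lines at 2-fold. SOX7, SOX18 and SOX8 lay in the lower part of the cloud, SOX17 lay just under the upper line at a high level, and the group C genes lay inside the cloud.

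The remaining SOX genes were examined for comparison. Of 10 listed, 9 were in the tables and only SOX13 and SOX15 passed the filter of 1 FPKM. SOX15, the single group G gene, was at 11.23 FPKM in the WT and 60.07 FPKM in the MEIS2-/- library, a log2 fold change of 2.41. SOX13, a group D gene, was at 22.79 FPKM and 45.96 FPKM, a log2 fold change of 1.01. Once the libraries had been centred on a median log2 ratio of 0, the value of SOX13 was 0.89, under the threshold, and that of SOX15 was 2.29. SOX2, SOX3, SOX14, SOX21, SOX5, SOX6 and SOX30 did not exceed 0.46 FPKM in either library, with SOX3 at 0 in WT cells and SOX21 at 0 in both. SOX1 was not analysed here. Thus 11 of the 18 SOX genes in the tables were compared. Of these, 4 were at least 2-fold lower and 2 at least 2-fold higher, against 7.97% and 7.84% of all genes compared. Those 2 lay outside groups F, E and C, and SOX13 was under the threshold after rescaling.

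The genes nearest to each SOX gene in the levels of both libraries were sought as a description, by the Euclidean distance over log2 of FPKM plus 0.1. With only 2 libraries, this distance cannot separate a shared pattern from a coincidence of levels. SOX7 was nearest to CFC1, a Nodal co-receptor gene (39.76 FPKM in the WT and 11.77 FPKM in the MEIS2-/- library, distance 0.0733), and to PLOD2, a collagen lysyl hydroxylase gene. SOX18 was nearest to PRRT2 (33.10 and 7.55 FPKM, distance 0.0533) and to HK2, which encodes a hexokinase. SOX17 was nearest to HNRNPM (130.08 and 283.36 FPKM, distance 0.155) and to DBN1. SOX8 was nearest to F12 and RASGRP2, and SOX10 to ARHGAP6 and TNNI1. Within a distance of 0.25 lay 4 genes for SOX17, 7 for SOX7, 7 for SOX8, 13 for SOX18 and 47 for SOX10. For the genes that differed least this number was larger, with 97 genes for SOX9 (nearest STK4 and SEC61A2), 130 for SOX12 (TRABD and COPZ1), 136 for SOX11 (GJA4 and THAP3) and 178 for SOX4 (CTNND1 and UBALD2).

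The choice of scale did not turn the direction of any of the 9 genes. Once the ratios had been centred on the median of the 8092 genes that reached 5 FPKM in both libraries, the log2 fold change of SOX17 was 0.79 and that of SOX4 was 0.03. SOX7, SOX18 and SOX8 were then at -1.96, -2.26 and -2.59. Over all the settings tried, SOX17 ranged from 0.79 to 0.90, SOX7 from -1.96 to -1.77, SOX18 from -2.26 to -2.02 and SOX8 from -2.59 to -1.82.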

How the data were processed

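RNA-Seq had been performed by BGI on 1 WT and 1 MEIS2-/- library. The authors deposited FPKM per gene, rounded to 2 decimals and listed by NCBI Gene number with RefSeq transcripts. The submitters' processing notes name BWA, Bowtie and RSEM and the build hg19, with no version or role. Low values did not fall on whole reads (best agreement 0.24 in WT and 0.37 in MEIS2-/-, where 1 is complete), so depth is unknown. Symbols came from RefSeq GRCh38.p14 and matched 17365 of 17397 genes. Positions and transcripts came from GENCODE 29 on GRCh38, and no coordinates were taken from the deposited tables.

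Log2 fold changes used a pseudocount of 0.1 FPKM and a filter of 1 FPKM in at least 1 library, with 2-fold as the threshold. No test was possible with 1 library per genotype. The computation was tested on planted changes. The SOX genes and the lists were chosen with earlier results of these data known. Named were MEIS2, the SOX genes, up to 3 of the largest changes past 2-fold in each direction per list, and the 2 nearest genes of each SOX gene. In addition PINX1, POLR2F and list genes that describe a group (KDR, CD34, PECAM1, DLL4, CLDN5, ROBO4, DPPA3, DDX4, FOXA2, GATA4, GATA6, MIXL1, APOA1, COL9A2, COL9A3, SOX5, SOX6, ACAN, PAX3, PAX7, TFAP2B, FN1, PRRX1, TEAD2, EZH2, LIN28A and DNMT3B) were chosen after their values were seen. The neuroectoderm list is plotted without 1 gene that is not reported here. Alternatives were other pseudocounts, filters, scalings and thresholds. Computations used Python 3.11.15, numpy 2.4.6 and pandas 2.3.3, and plots used matplotlib 3.10.9.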

Additional observations from a re-analysis of the deposited data

How the results depend on the processing

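No paired analysis was possible because each genotype had 1 library, and for the same reason no library could be left out. Under 8 alternative settings, 66 of 71 values of single SOX genes and 85 of 96 group summaries kept their direction and their side of the threshold, or stayed within 1.5 times the count; none reversed. Of 288 summaries of the comparison lists, 242 did so, 32 moved, 11 fell short of the threshold and 3 newly passed it. The median of the neural crest and glia list changed sign, to -0.24 with a filter of 5 FPKM. With a pseudocount of 1 FPKM, the group E median was -0.84 and 1 group E gene was at least 2-fold lower. With a filter of 5 FPKM, 1 group E gene was at least 2-fold lower, since SOX10 was below that filter and had no value. At a 1.5-fold threshold, the median of the 9 genes (-0.65) passed, and 1 gene, SOX17 of group F, counted as higher, so that the count of higher genes was 1 in group F and 1 over the 9 genes. At a 4-fold threshold, the medians of group F (-1.85) and group E (-1.26) no longer passed, and the lower genes numbered 1 in group F, 1 in group E and 2 over the 9 genes. These changes, and part of the agreement, follow from how each setting is built. A filter cannot alter the value of a single gene, and a pseudocount or threshold cannot turn its direction. Of the settings, only rescaling could turn it. Rescaling left each group count unchanged. Without counts or replicates, the precision of low values such as those of SOX8 and SOX10 is unknown.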

Other observations

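Of 9 genes of undifferentiated cells, 8 were compared. In MEIS2-/- cells 4 were at least 2-fold higher, against 7.84% of all genes compared, and none at least 2-fold lower, against 7.97%. The median log2 fold change of the list was 1.10, which was 0.99 once the libraries had been centred on a median log2 ratio of 0. POU5F1 measured 285.65 FPKM in the WT and 1454.14 FPKM in the MEIS2-/- library, while SOX2, its SOX partner in embryonic stem cells, was at 0.09 FPKM and 0.15 FPKM. LIN28A was at 187.31 FPKM and 204.79 FPKM, and DNMT3B, a DNA methyltransferase gene, at 76.91 FPKM and 45.35 FPKM.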
